A study of Mus musculus with 6 samples.

Results

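The genes described here are 10 regulators and surface proteins of haematopoietic stem and multipotent progenitor cells outside the HoxA, GATA and ETS families: Myb, Sox4, Hlf, Mecom, Eya1, Hmga2, Nkx2-3, Egfl7, Cd34 and Cd93. They were chosen by name, and all 10 had a row among the 22271 genes of the count table. The choice, like that of the lists set beside them below, was made with earlier results of these data known. Whole transcriptomes were sequenced from 2 sorted bone marrow populations of C57BL/6JRj mice. The CD27 low MOP population (3 libraries) is a progenitor that the study's title places downstream of the CD27 high MODP population (3 libraries); the title assigns macrophages and osteoclasts to the first, and these together with dendritic cells to the second. No treatment is given for either group, and whether a library came from 1 animal or from pooled animals is not stated in the labels, so the p-values rest on the variation among 3 libraries a group, and part of that variation may be technical.

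Stem and multipotent progenitors keep themselves undifferentiated through a set of transcription factors, and lose them stepwise as daughter cells commit to a lineage. Myb is needed for definitive blood formation and for the growth of immature progenitors, Hlf and Mecom are factors most active in long-term stem cells, and Hmga2 is a chromatin protein linked to the high self-renewal of fetal stem cells. Cd34 and Cd93 are surface proteins used to sort immature blood cells, and both, like Egfl7, are also made by endothelium.

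MOP libraries held 13338577 to 15892640 counts and MODP libraries held 10701425 to 13846749. The sort gene Cd27 averaged 3.91 ± 0.571 CPM (counts per 1e+06, scaled by TMM) in MOP and 37.7 ± 1.99 CPM in MODP (SD, n = 3 each). The receptor genes Kit and Flt3 were lower in MOP and Csf1r and Spn higher, with log2 fold changes of -1.29, -1.86, 0.77 and 0.26 (edgeR adjusted p = 0.00064, 4.3e-05, 0.0022 and 0.02). The Spn call was lost under upper-quartile scaling and without MODP replicate 1, MODP replicate 3, MOP replicate 1 or MOP replicate 3 (adjusted p from 0.0024 to 0.09 over 14 edgeR and DESeq2 alternatives). Ptprc, the pan-leukocyte antigen CD45, lay between 268 and 476 CPM in all 6 libraries. Of 12850 genes tested with edgeR's quasi-likelihood test, 2095 were higher and 1913 were lower in MOP, a split that became 1692 higher and 2452 lower under upper-quartile scaling. MODP replicate 2 stood apart in markers of other cells: the summed stromal markers, led by Col1a1, reached 3125 CPM there, against 28.0 and 111 CPM in MODP replicates 1 and 3 and 18.9 to 409 CPM in MOP, and the summed neutrophil markers, led by S100a9, were highest in replicate 2 of each group. MOP replicate 2 and MODP replicate 2 are the libraries titled WT2.

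Of the 10 genes, 8 were lower in MOP, 1 (Cd93) did not pass the test and 1 (Nkx2-3) had too few reads to be tested. Each of the 8 was at least 2-fold lower, and Mecom, Eya1 and Hlf were more than 4-fold lower. Across all tested genes, 14.9% were lower in MOP by the same test, and 3% were lower and at least 2-fold so. As the 10 genes were chosen with earlier results known, the shares over all genes are set beside them as description, not as a test. The median log2 fold change (MOP over MODP) of the 9 tested genes was -1.85, and that of all tested genes was -0.01. For 9 of the 10 genes, Nkx2-3 included, the highest MOP library was below the lowest MODP library, which held for 15.9% of all genes in the table; among tested genes alone, 8 of the 9 lay wholly below, against a background of 23.8% lower and 23.8% higher. Mecom passed the filter on low counts through its MODP libraries alone, so its place among the tested genes already required a higher level there. A bulk sample does not tell fewer cells with a transcript apart from less of it per cell, which holds for every value below.

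**Figure D1:**
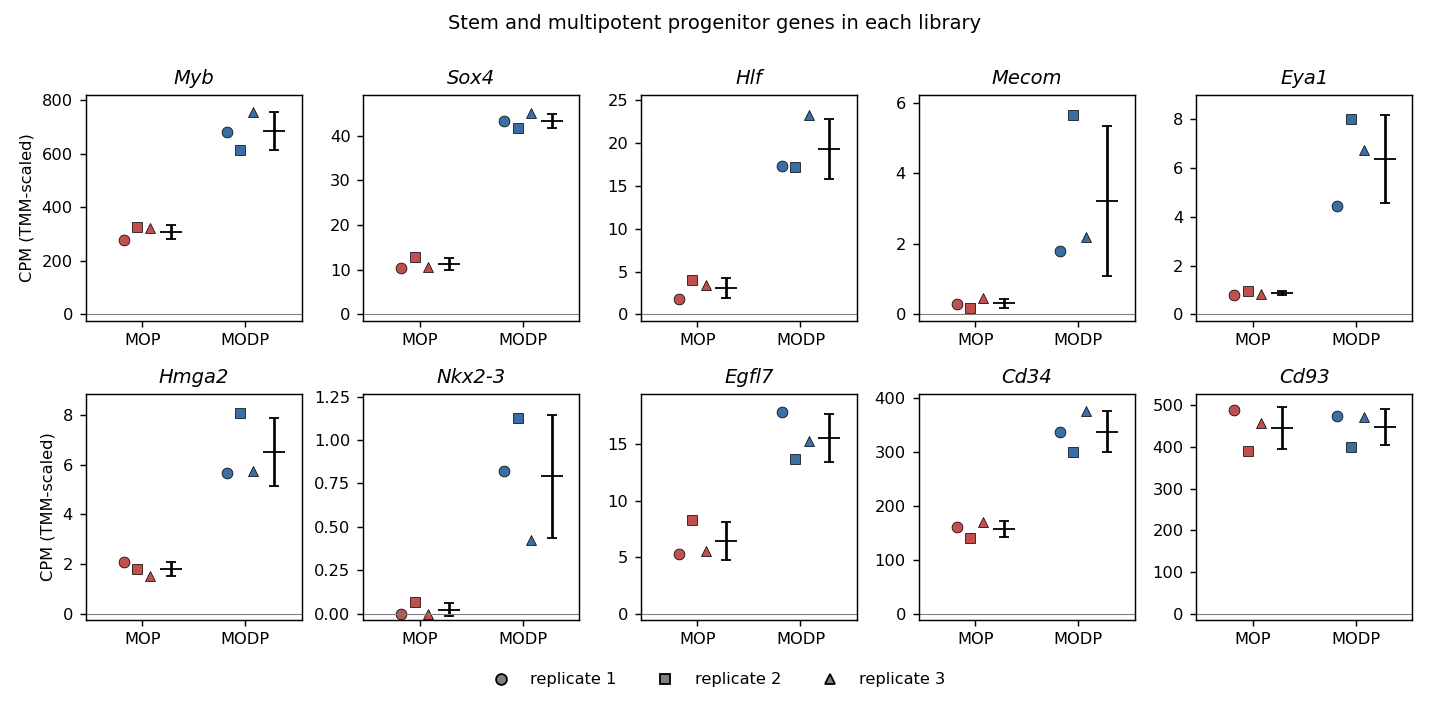
Level of each gene in CPM in the 3 MOP (left) and 3 MODP (right) libraries, one marker shape per replicate number, with the mean ± SD as a bar beside them; each panel has its own linear axis. The MOP points lie below the MODP points in every panel but that of Cd93, where both groups span about the same range, and the square of MODP replicate 2 is the highest point for Mecom, Eya1, Hmga2 and Nkx2-3.

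All 6 nuclear regulators that could be tested were lower in MOP. Myb (ENSMUSG00000019982, chromosome 10), the most abundant of them, had 277, 324 and 322 CPM in MOP replicates 1, 2 and 3, against 681, 614 and 755 CPM in MODP replicates 1, 2 and 3. The groups were well apart, and within each the highest library was at most 1.23 times the lowest. MOP thus retained 45.0% of the MODP level, a log2 fold change of -1.15 ± 0.09 (SE; edgeR adjusted p = 0.00026).

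Sox4 (ENSMUSG00000076431, chromosome 13), an HMG-box factor of lymphoid and myeloid progenitors, had 10.5, 12.8 and 10.6 CPM in MOP, against 43.2, 41.7 and 45.0 CPM in MODP. The MODP libraries varied least of any of the 10 genes, with a coefficient of variation of 3.83%. Sox4 was 3.82-fold lower in MOP, a log2 fold change of -1.93 ± 0.10 (SE; edgeR adjusted p = 4.3e-05), the smallest adjusted p among the 10. Of its 31-base words, 54.7% also occur in other annotated transcripts, but only 0.567% in genes elsewhere in the genome; nearly all the sharing is with Gm26735, an antisense gene over 2616 bases of Sox4 exon, and no source used here states whether counting kept the strands apart.

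Hlf (ENSMUSG00000003949, chromosome 11), a bZIP factor of the proline and acidic amino acid-rich (PAR) group, had 1.77, 4.03 and 3.41 CPM in MOP, against 17.3, 17.2 and 23.3 CPM in MODP. MOP replicate 1 was the lowest of all, and the lowest MODP library was still more than 4 times the highest MOP library. Hlf was 6.24-fold lower in MOP (log2 fold change -2.64 ± 0.28, SE; edgeR adjusted p = 0.0007).

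Mecom (ENSMUSG00000027684, chromosome 3), the EVI1 zinc-finger locus, rested on few reads: 4, 3 and 6 counts in MOP and 22, 60 and 31 counts in MODP. On the CPM scale these were 0.295, 0.192 and 0.455 in MOP, against 1.81, 5.64 and 2.18 in MODP, so that MODP replicate 2 was more than 2 times either of the other libraries of its group. Mecom was 9.99-fold lower in MOP, with a fitted log2 fold change of -3.32 ± 0.58 (SE; edgeR adjusted p = 0.0041). The size depended on replicate 2, since it became 6.34-fold without MODP replicate 2 and 5.25-fold without both libraries titled WT2, where the edgeR adjusted p was 0.0018 and 0.0044. MODP replicate 2 is also the library with the highest summed stromal markers, at 3125 CPM, and their part in the Mecom level was not tested.

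Eya1 (ENSMUSG00000025932, chromosome 1), a phosphatase and co-activator that works with sine oculis homeobox factors, had 0.810, 0.960 and 0.834 CPM in MOP, against 4.44, 8.0 and 6.75 CPM in MODP. The MOP libraries lay close together and far below the lowest MODP library, MODP replicate 1. Eya1 was 7.27-fold lower in MOP (log2 fold change -2.86 ± 0.29, SE; edgeR adjusted p = 0.00047).

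Hmga2 (ENSMUSG00000056758, chromosome 10) had 2.06, 1.79 and 1.52 CPM in MOP, against 5.67, 8.09 and 5.76 CPM in MODP. It was 3.61-fold lower in MOP, with a log2 fold change of -1.85 ± 0.24 (SE; edgeR adjusted p = 0.0012), and the groups did not overlap. An antisense gene that shares 140 bases of exon with it, 1700006J14Rik, went the other way. It had 8.84, 6.92 and 8.34 CPM in MOP, against 2.63, 2.26 and 1.76 CPM in MODP (log2 fold change 1.86 ± 0.22, SE; edgeR adjusted p = 0.0007). What the shared bases add to either count was not tested.

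Nkx2-3 (ENSMUSG00000044220, chromosome 19), an NK-class homeobox gene, had 0, 1 and 0 counts in MOP, against 10, 12 and 6 counts in MODP. In all, 1 read was counted in 43064557 from MOP and 28 in 36494712 from MODP. The MOP level was therefore 3.03% of the MODP level, with an exact 95% interval of 0.0740% to 18.3% that covers counting error only. In an edgeR fit with no filter on low counts, where 8.33% of genes were lower in MOP, the adjusted p for Nkx2-3 was 0.00074.

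Of the secreted and surface proteins, 2 of 3 were lower. Egfl7 (ENSMUSG00000026921, chromosome 2), a secreted protein that binds Notch receptors and an integrin, had 5.30, 8.32 and 5.54 CPM in MOP, against 17.8, 13.6 and 15.3 CPM in MODP. Replicate 2 was the highest library of MOP and the lowest of MODP, and the groups still did not overlap. Of the exon bases of Egfl7, 337 are also annotated on the same strand, as Gm20532 and Mir126a, which have no row in the table, and 122 on the other strand, as Agpat2 and Mir126b; Agpat2 did not pass (log2 fold change -0.22; edgeR adjusted p = 0.42). Egfl7 was 2.43-fold lower in MOP, a log2 fold change of -1.28 ± 0.20 (SE; edgeR adjusted p = 0.0024).

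Egfl7 is also the host gene of a microRNA with a known part in stem cell quiescence, miR-126, whose hairpin lies within annotated Egfl7 exon sequence. The mature strand is shown because the microRNA is made from the Egfl7 transcript; its own level was not analysed here. Its sequence in RefSeq (GRCm38.p6, chr2:26591402-26591423, plus strand) is given with the seed, bases 2 to 8, in capitals.
mmu-miR-126a-3p: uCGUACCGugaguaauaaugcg

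Cd34 (ENSMUSG00000016494, chromosome 1), a sialomucin of immature blood cells, had 160, 140 and 169 CPM in MOP, against 337, 300 and 376 CPM in MODP. MOP kept 46.3% of the MODP level, a share close to that of Myb, for a log2 fold change of -1.11 ± 0.10 (SE; edgeR adjusted p = 0.00039). Set side by side by replicate number, the log2 ratios of MOP over MODP for Cd34 were -1.08, -1.10 and -1.15, the closest agreement among the 8 lower genes. Annotated antisense genes also cover 148 exon bases of Cd34, 559 of Myb and 81 of Mecom. Of the 31-base words of Cd34, 8.045% also occur in genes elsewhere in the genome, as do 5.397% of those of Hmga2 and 2.121% of those of Cd93. What such shared words add to the counts was not tested.

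Cd93 (ENSMUSG00000027435, chromosome 2), a lectin-like receptor that marks early myeloid and B lineage progenitors, had 488, 389 and 458 CPM in MOP, against 473, 399 and 471 CPM in MODP. Replicate 2 was the lowest library of each group, and the ranges overlapped almost wholly. Its log2 fold change, -0.01 ± 0.10 (SE), did not pass (edgeR adjusted p = 0.96), and the 95% interval ran from -0.24 to 0.22, or from 0.847-fold to 1.17-fold. A change as large as that of Cd34 or Myb lies outside this interval.

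**Figure D2:**
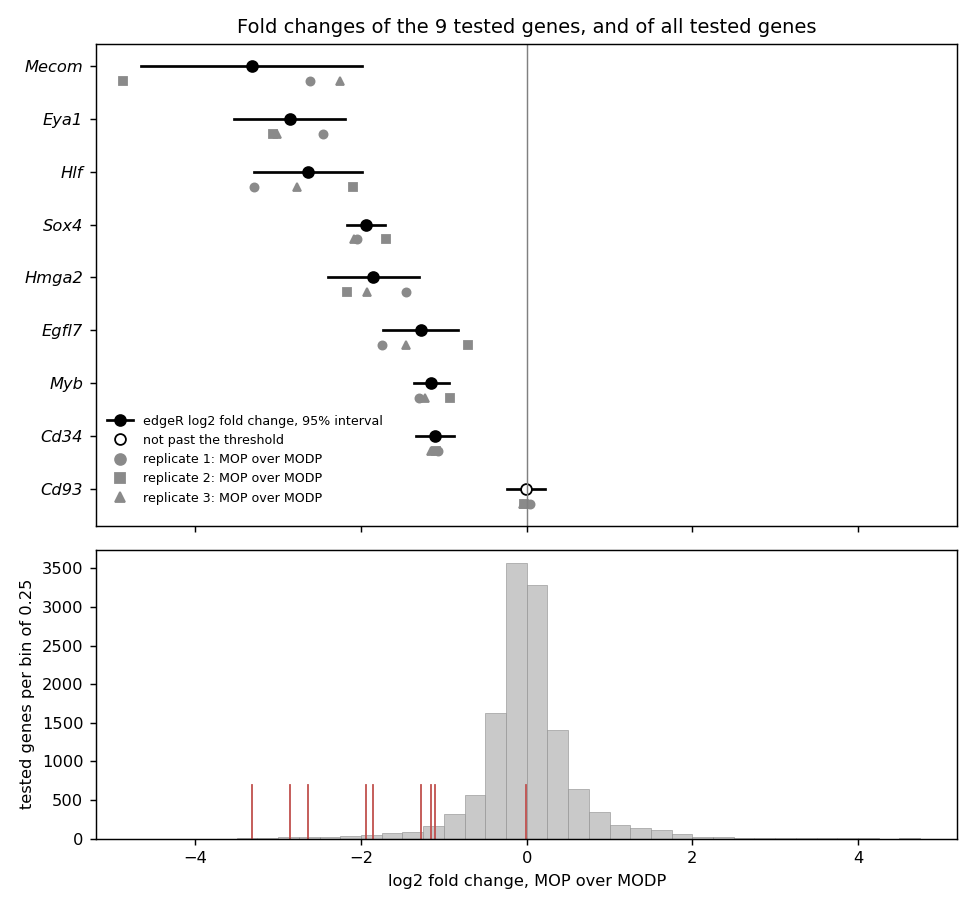
Upper panel: edgeR log2 fold change, MOP over MODP, of the 9 tested genes with 95% intervals (filled where past the threshold) and, in grey, the log2 ratio of MOP to MODP for each replicate number. Lower panel: the same quantity for all 12850 tested genes in bins of 0.25, with red lines at the 9 genes. Mecom, Eya1 and Hlf lie at the far left, Cd34, Myb and Egfl7 lie between -1.1 and -1.3, and Cd93 lies at 0 with an open symbol.

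The 8 lower genes differed in size of change. Cd34, Myb and Egfl7 were 2.16-fold, 2.22-fold and 2.43-fold lower in MOP, Hmga2 and Sox4 3.61-fold and 3.82-fold, and Hlf, Eya1 and Mecom 6.24-fold to 9.99-fold. The 95% intervals of Cd34, Myb and Egfl7 did not overlap with those of Hlf, Eya1 and Mecom. Those of the genes in between met both sides: the interval of Hmga2 overlapped with all 7 others, and that of Sox4 with those of Egfl7, Hmga2, Hlf and Mecom. Of the 12850 tested genes, 53, 35 and 11 had a more negative log2 fold change than Hlf, Eya1 and Mecom.

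Levels can be set between genes only per length, here as mean CPM per kilobase of all annotated GENCODE M21 exon of a gene. That length was 8933 bases for Myb and 7290 for Cd34, whose longest transcripts have 3693 and 3063. For Cd93 both lengths were 6677, so the order of genes, Cd93 against Myb and Cd34 included, depends on the length used. By all annotated exon, Cd93 led in MOP at 66.7, ahead of Myb (34.4) and Cd34 (21.5), followed by Sox4 (2.36), Egfl7 (1.78), Hlf (0.460), Hmga2 (0.264), Eya1 (0.111), Mecom (0.0253) and Nkx2-3 (0.0101). The ranges of neighbours in this order overlapped for Sox4 with Egfl7, Hlf with Hmga2, and Mecom with Nkx2-3. In MODP, Myb (76.5) and Cd93 (67.1) shared the top with overlapping ranges, followed by Cd34 (46.3), Sox4 (9.02), Egfl7 (4.35), Hlf (2.89), Hmga2 (0.961), Eya1 (0.819), Nkx2-3 (0.375) and Mecom (0.258). Hmga2 overlapped there with Eya1, and Nkx2-3 with Mecom. By this length, Myb and Cd93, whose libraries overlapped in MODP, were apart in MOP.

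**Figure D3:**
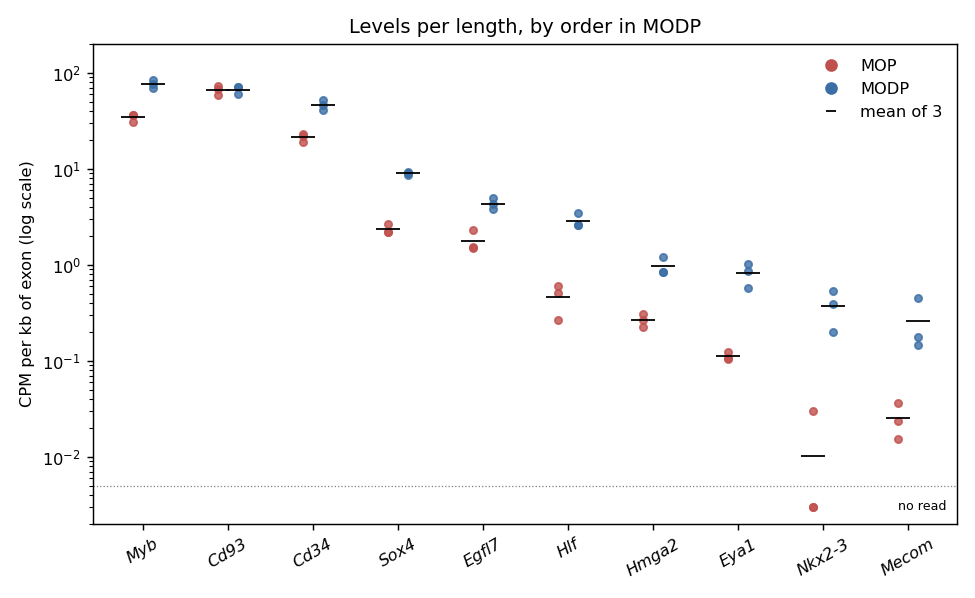
CPM per kilobase of exon on a log axis, MOP (red, left) and MODP (blue, right) for each gene, with points for libraries and a dash for the mean of 3; libraries with no read are drawn under the dotted line. Genes run from the highest to the lowest MODP mean, from Myb at 76.5 to Mecom at 0.258, and Cd93 alone has red and blue points at the same height.

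Upstream sequence is shown for the most abundant regulator (Myb), that with the smallest adjusted p (Sox4) and the pair of stem cell factors with large changes (Hlf and Mecom, which has 2 annotated starts). RefSeq windows (GRCm38.p6) were found for 8 of the 10 genes, 11 windows in all; each line below holds the 250 bases before a start, 5′ to 3′ on the gene's strand. Capitals mark matches, on either strand, to any of 7 motifs: the GC box GGGCGG, the CCAAT box CCAAT, the TATA box TATAAA, an ETS motif CCGGAAGT, a GATA motif AGATAA, a PAR bZIP motif TTANNTAA and a MYB motif CNGTTA. Matches may overlap.
Myb, chr10:21160985-21161234, minus strand: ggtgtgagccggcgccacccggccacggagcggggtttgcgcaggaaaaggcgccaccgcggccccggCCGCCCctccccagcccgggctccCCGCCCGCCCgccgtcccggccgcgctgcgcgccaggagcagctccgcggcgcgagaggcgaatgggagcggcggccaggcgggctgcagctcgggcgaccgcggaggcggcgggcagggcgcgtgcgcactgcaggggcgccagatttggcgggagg
Sox4, chr13:28953700-28953949, minus strand: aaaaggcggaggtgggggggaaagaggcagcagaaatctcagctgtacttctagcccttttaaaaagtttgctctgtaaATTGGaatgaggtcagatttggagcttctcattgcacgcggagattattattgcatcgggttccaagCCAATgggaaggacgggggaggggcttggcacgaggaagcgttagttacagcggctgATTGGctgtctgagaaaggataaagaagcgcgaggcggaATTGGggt
Hlf, chr11:90390918-90391167, minus strand: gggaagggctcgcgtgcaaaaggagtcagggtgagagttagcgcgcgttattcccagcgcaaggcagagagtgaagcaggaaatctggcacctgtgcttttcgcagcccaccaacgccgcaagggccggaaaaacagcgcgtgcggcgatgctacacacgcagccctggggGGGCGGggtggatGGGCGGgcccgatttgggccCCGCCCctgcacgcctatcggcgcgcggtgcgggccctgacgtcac
Mecom start 1, chr3:30509760-30510009, minus strand: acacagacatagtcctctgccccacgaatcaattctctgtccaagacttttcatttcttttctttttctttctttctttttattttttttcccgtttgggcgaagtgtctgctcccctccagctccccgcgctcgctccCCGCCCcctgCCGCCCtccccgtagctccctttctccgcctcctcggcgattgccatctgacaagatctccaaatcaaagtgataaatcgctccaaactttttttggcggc
Mecom start 2, chr3:30013205-30013454, minus strand: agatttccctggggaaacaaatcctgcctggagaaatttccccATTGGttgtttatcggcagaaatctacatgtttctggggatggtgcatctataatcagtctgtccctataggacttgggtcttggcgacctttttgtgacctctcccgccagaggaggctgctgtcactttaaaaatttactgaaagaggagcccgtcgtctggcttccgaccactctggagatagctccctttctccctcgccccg

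The capitals in the Myb and Hlf windows and in the first Mecom window are GC boxes, and those in the Sox4 window and in the second Mecom window are CCAAT boxes. A GC box occurred in 6 of the 11 windows, those of Myb, Hlf, Mecom, Hmga2, Nkx2-3 and Egfl7, and in 32.7% of all 32851 RefSeq windows of the same length. A CCAAT box occurred in 3 of the 11, those of Sox4, Mecom and Nkx2-3, and in 33.8% of all. The MYB letters occurred in 2, those of Egfl7 and Cd34, and in 19.8% of all. The TATA, ETS, GATA and PAR bZIP letters occurred in 0 of the 11 windows, and in 12.4%, 2.88%, 9.99% and 5.43% of all. The Myb window had a GC content of 81.2% and 40 CpG dinucleotides and that of Cd34 46.4% and 6, against medians of 52.4% and 6 over all windows.

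Beside the 10 genes stood a wider list of 37 other stem and multipotent progenitor genes, all with a row and 33 tested. In MOP 14 of these fell and 3 rose, 16 did not pass, and the median log2 fold change was -0.68; over all tested genes, 14.9% were lower and 16.3% higher. The lower ones included Adgrg1, an adhesion receptor of stem cells, at 125 ± 6.91 CPM in MOP and 304 ± 17.6 CPM in MODP (SD, n = 3 each). Muc13, a membrane mucin of early progenitors, averaged 20.0 ± 2.34 CPM in MOP and 66.2 ± 6.11 CPM in MODP. Their log2 fold changes were -1.28 ± 0.07 and -1.73 ± 0.11 (SE; edgeR adjusted p = 4.3e-05 and 0.00012). The log2 fold changes of Plac8, a small cysteine-rich protein, of the chromatin organiser Satb1 and of Lmo2, a bridging protein of stem cell factor complexes, were smaller, at -0.48, -0.45 and -0.50 (edgeR adjusted p = 0.0012, 0.0013 and 0.0019).

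The 3 higher members of the wider list, named after their values were seen, were Tal1, Id1 and Ifitm1, with log2 fold changes of 0.44, 1.48 and 1.51 (edgeR adjusted p = 0.0073, 0.041 and 0.0069). Tal1 is a factor of stem cells that erythroid and mast cells also use. Id1, an inhibitor of E proteins, had 48.4, 38.2 and 32.6 CPM in MOP, against 11.3, 22.9 and 8.93 CPM in MODP. Its call was lost with no filter on low counts, with the replicate number as a block, and without MODP replicate 1, MODP replicate 3 or any 1 MOP library, and over its 14 alternatives the edgeR adjusted p ran from 7.2e-06 to 0.13. Leaving out MODP replicate 2, or both libraries titled WT2, put 6 members on the higher side.

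Relatives and partners of each of the 10 genes formed a further list of 82 genes, of which 69 had a row and 47 were tested. They moved both ways, with 12 that rose in MOP, 9 that fell and 26 that missed the threshold, with a median log2 fold change of 0.03 and a background of 16.3% higher and 14.9% lower over all tested genes. For Myb, the co-activator gene Ep300 rose by log2 0.46 ± 0.06 (SE; edgeR adjusted p = 0.0015) in MOP. The paralogue Mybl2, chosen after its values were seen, stood at 137 ± 2.56 CPM in MOP and 138 ± 9.79 CPM in MODP.

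Close relatives did not share 1 direction. Next to Sox4, Sox12 of the same SoxC group fell by 0.80 ± 0.18 (SE) on the log2 scale, whereas Sox6, a SoxD factor of erythroid and cartilage cells, rose by 1.23 ± 0.25 (edgeR adjusted p = 0.011 and 0.0077). Sox13, also a SoxD factor and named after its values were seen, had a log2 fold change of -1.14 ± 0.29 (SE; edgeR adjusted p = 0.021). The Sox13 call was lost without MODP replicate 1, MODP replicate 3 or MOP replicate 3. Next to Eya1, Eya2 had 9.87, 6.59 and 8.65 CPM in MOP, against 2.88, 2.82 and 2.74 CPM in MODP, a log2 fold change of 1.57 ± 0.20 (SE; edgeR adjusted p = 0.0012). Per kilobase of all annotated exon, Eya2 averaged 2.82 CPM and Eya1 0.111 CPM in MOP, while in MODP the levels of both lay near each other, at 0.950 for Eya2 and 0.819 for Eya1. The levels of both genes against each other depend on the length used. The partner gene Six5 was lower by log2 -1.39 ± 0.23 (SE; edgeR adjusted p = 0.0033).

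Next to Mecom, the PR-domain gene Prdm2 had a log2 fold change of 0.36 ± 0.07 (SE; edgeR adjusted p = 0.0043). Prdm16, the closest paralogue of Mecom and chosen after its values were seen, had 3.09, 3.27 and 6.60 CPM in MOP, against 4.77, 3.48 and 5.97 CPM in MODP, and did not pass (edgeR adjusted p = 0.78). Next to Hlf, the PAR bZIP gene Tef was at 20.3 ± 0.898 CPM in MOP and 25.9 ± 1.76 CPM in MODP (edgeR adjusted p = 0.018). The call for Tef was lost without MOP replicate 2, without MOP replicate 3 and without both libraries titled WT2, and over its 14 alternatives the adjusted p ran from 0.009 to 0.076.

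Next to Hmga2, the RNA-binding protein gene Igf2bp2, a known target of Hmga2, had 1.69, 1.86 and 1.44 CPM in MOP, against 3.04, 4.99 and 4.64 CPM in MODP (log2 fold change -1.33 ± 0.27, SE; edgeR adjusted p = 0.007). Tut4, listed as Zcchc11, a uridylyltransferase that acts on let-7 precursors, fell by 0.40 ± 0.06 (SE) on the log2 scale (edgeR adjusted p = 0.0015). The paralogue Hmga1, chosen after its values were seen, stood at 79.2 ± 4.11 CPM in MOP and 85.1 ± 6.04 CPM in MODP (edgeR adjusted p = 0.31). Among NK homeobox relatives of Nkx2-3, Hhex was the sole gene tested, with 71.3 ± 4.13 CPM in MOP and 74.3 ± 4.19 CPM in MODP (edgeR adjusted p = 0.59).

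For Egfl7, the receptor gene Notch2 and the integrin gene Itgb3 had log2 fold changes of 0.84 ± 0.08 and 0.89 ± 0.10 (SE), both higher in MOP (edgeR adjusted p = 0.00042 and 0.00069). For Cd93, Msn, a membrane-to-actin linker, averaged 1092 ± 50.2 CPM in MOP and 640.2 ± 57.8 CPM in MODP (edgeR adjusted p = 0.00039). Thbd, a receptor of the same lectin group, rose by log2 0.84 ± 0.20 (SE; edgeR adjusted p = 0.019). That call was lost without MODP replicate 2, MODP replicate 3 or MOP replicate 2 and without both libraries titled WT2, and over its 14 alternatives the adjusted p ran from 0.00015 to 0.13.

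**Figure D4:**
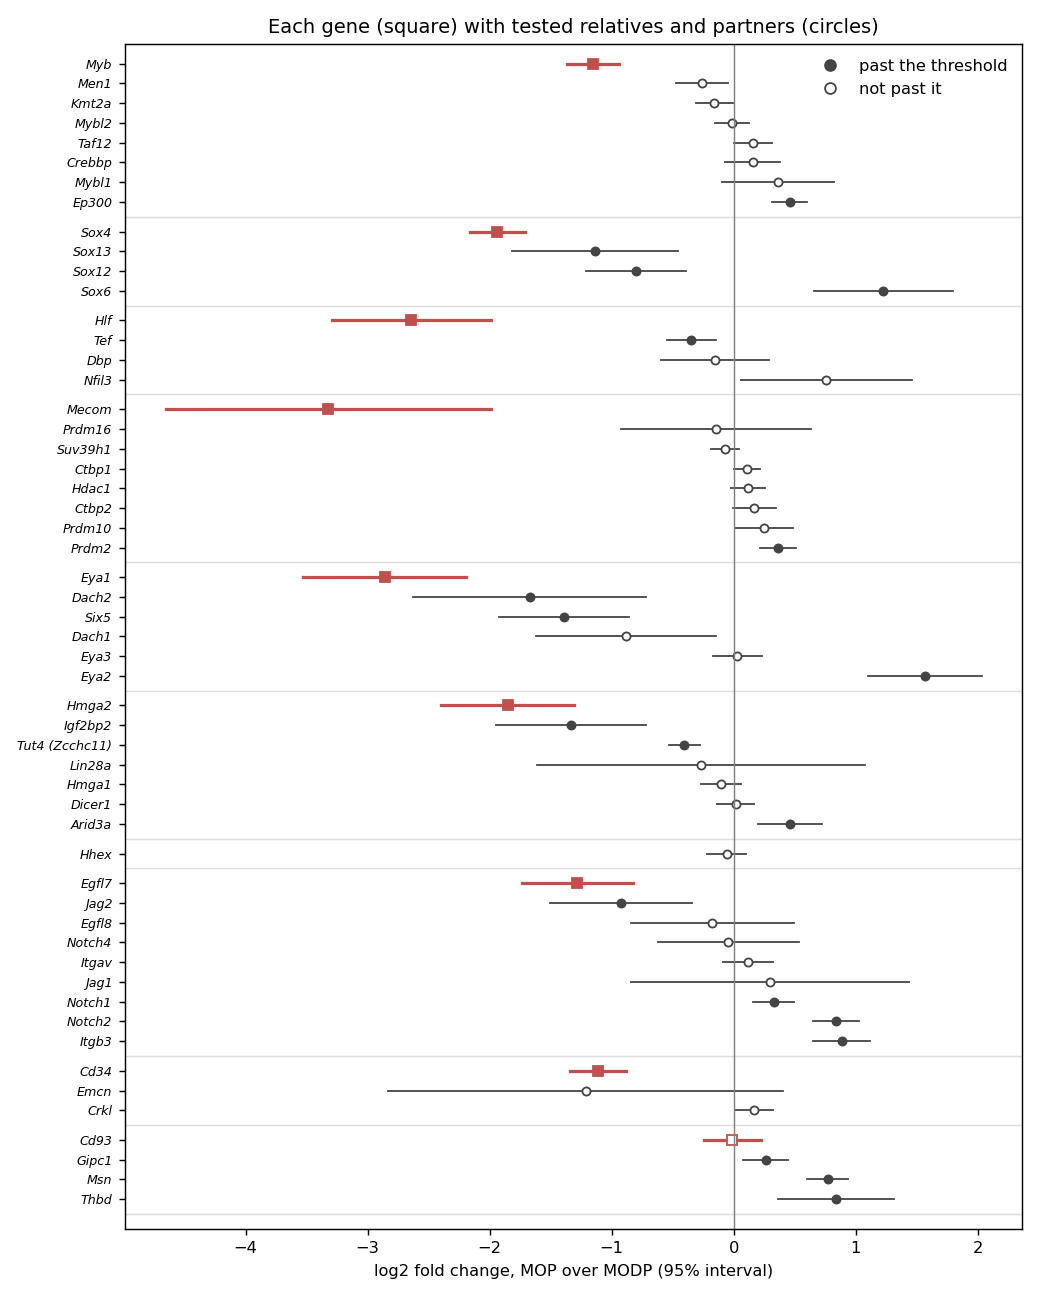
Log2 fold change, MOP over MODP, with 95% intervals for each of the 9 tested genes (red squares) and, under it, tested relatives and partners (circles, filled where past the threshold); Hhex, the tested relative of Nkx2-3, stands alone. The squares lie left of 0 for all but Cd93, while the circles lie on both sides, with Eya2 at 1.57 and Sox6 at 1.23 the farthest to the right.

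Markers of other cells were summed per library to be read beside these genes. For the counts of markers below, the share over all tested genes was 14.9% lower and 16.3% higher in MOP. T and NK cell markers were lower in MOP, as 8 of the 10 genes were: the sum lay at 67.2 to 107 CPM in MOP and 222 to 281 CPM in MODP, 6 of 9 markers were lower, and Nkg7 made up most of it. The count was 3 without MOP replicate 1 or MOP replicate 3, and 9 with the replicate number as a block. Cd3e, a defining T cell marker, lay at 0.147 to 0.768 CPM in MOP and 1.81 to 5.27 CPM in MODP. Its MOP libraries alone would not have passed the filter on low counts, which favoured a higher level in MODP among tested genes. Basophil and mast cell markers, led by Prss34, were higher, with a sum of 2964 to 4772 CPM in MOP and 326 to 896 CPM in MODP, and 7 of 8 markers higher. With the replicate number as a block 3 of these calls held and those of Prss34, Mcpt8, Ms4a2 and Fcer1a were lost (adjusted p for Prss34 from 8.1e-06 to 0.093 over its 14 edgeR and DESeq2 alternatives); the count was 4 without MODP replicate 1, MODP replicate 3, MOP replicate 1 or MOP replicate 3. Of erythroid and megakaryocyte markers, led by Itga2b, 4 of 9 tested were higher, with a sum of 385 to 501 CPM in MOP and 133 to 507 CPM in MODP. The block ended the call of Itga2b, and the count of higher ones was 2 without MODP replicate 1, MODP replicate 3 or MOP replicate 1. The megakaryocyte marker Pf4 went the other way, at log2 -1.78, and did not pass (edgeR adjusted p = 0.05). It passed as lower in 8 of its 14 alternatives. The globin genes Hba-a1, Hba-a2, Hbb-bs and Hbb-bt did not pass, at log2 fold changes of 0.20, -0.02, 0.01 and 0.16. The B cell sum, led by Cd79b, lay at 38.9 to 76.9 CPM in MOP and 43.9 to 122 CPM in MODP. The part of these in the results above was not tested.

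Endothelial markers bear on Egfl7, Cd34 and Cd93. Their sum overlapped between the groups, at 164 to 178 CPM in MOP and 170 to 201 CPM in MODP, and most of it was Pecam1, which blood progenitors also express. Of 8 tested, Tie1 passed as lower in MOP, at 9.84 ± 1.75 CPM in MOP and 28.1 ± 1.76 CPM in MODP (edgeR adjusted p = 0.00035), and the median log2 fold change of the 8 was -1.15. The low-abundance markers Tek, Robo4, Esam and Emcn stood at 44.7%, 43.1%, 29.8% and 40.9% of their MODP levels (edgeR adjusted p = 0.1, 0.072, 0.099 and 0.23). The libraries of the first 3 did not overlap, and 23.8% of all tested genes lay wholly lower in MOP. None of these markers would have passed the filter on low counts by its MOP libraries alone, which favoured a higher level in MODP. The count of lower markers was 3 with the replicate number as a block, 5 without MOP replicate 2 and 5 without both libraries titled WT2. The defining endothelial genes Cdh5 and Clec14a were at 0.379 to 3.78 and 0 to 0.320 CPM in MOP, and at 0.633 to 1.6 and 0 to 0.329 CPM in MODP. Kdr, which had too few reads to be tested, had 0.442, 3.52 and 0.455 CPM in MOP, against 0.411, 0.470 and 0.492 CPM in MODP. Within MOP, replicate 2 had the highest level of Cdh5, Kdr, Clec14a, Tie1, Tek, Robo4, Esam and Emcn, and also of Egfl7. The endothelial sum, mostly Pecam1, was lowest there, at 164 CPM. The part of endothelial RNA in the levels of Egfl7, Cd34 and Cd93 was not tested. Without both libraries titled WT2, where the stromal and neutrophil sums were highest, all 8 lower genes were again lower in MOP. In that fit 8 of 9 T and NK cell markers were still lower, and 7 of 8 basophil and mast cell markers higher. The part of other cells was thus not tested by leaving these libraries out.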

How the data were processed

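RNA of sorted marrow progenitors was extracted with TriZol and made into TruSeq libraries, per the labels' protocols. The deposited table holds raw read counts per Ensembl gene; the aligner TopHat 1.4 and the counter HTSeq are listed in the submitters' processing notes, and no build, annotation or strand setting is given in the sources used here. Symbols came from GENCODE M21, which matched 20840 of 22271 identifiers. CPM, filterByExpr (minimum count 10, 12850 genes kept), TMM scaling and the quasi-likelihood test were from edgeR 4.0.16 in R 4.3.3, with group as the factor and Benjamini-Hochberg adjustment over every tested gene; 0.05 was the threshold. DESeq2 1.42.0 was an alternative. The test was also run on simulated data, drawn with the same dispersion for every gene and no link between same-numbered libraries. That run does not cover the shared deviations given below. Groups came from the labelled cell type. Column names number the libraries 1 to 3 in each group, while titles read WT1, WT2 and WT1. Same-numbered libraries deviated together from their group means over 9351 genes (r = 0.589, 0.607 and 0.507, with other pairs at -0.449 to 0.0503). Deviations from a group mean cancel within the group, which in itself lowers r for the other pairs. The numbers were taken as pairs only in the alternative with the replicate number as a block. The main fit, with its p-values, SE and intervals, was unpaired. No libraries repeated each other within sampling noise (chi-square per degree of freedom 7.35 to 34.7). The genes and lists were chosen with earlier results of these data known. By rule, all 10 genes and the sort genes were named, then up to 5 genes of the wider list and up to 2 of each family by smallest adjusted p past the threshold (otherwise the most abundant), and the most abundant gene of each other marker list. Some genes the rule selects are not reported here or drawn.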

Additional observations from a re-analysis of the deposited data

How the results depend on the processing

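Fold changes of the 9 tested genes were recomputed under 14 alternatives each: DESeq2, DESeq2 size factors, upper-quartile scaling, 2 other filters, 2 blocks, each library left out and both WT2 libraries left out. The 8 lower genes stayed lower and past the threshold in all of them, with log2 fold changes of -1.26 to -1.08 for Myb, -2.06 to -1.88 for Sox4, -2.98 to -2.37 for Hlf, -3.67 to -2.39 for Mecom, -3.07 to -2.68 for Eya1, -1.96 to -1.67 for Hmga2, -1.61 to -1.17 for Egfl7 and -1.19 to -1.03 for Cd34. Cd93 did not pass in any (-0.09 to 0.08), and changed sign in 4. Nkx2-3 could be fitted only with no filter and in 4 fits without a library (-6.32 to -4.15); it passed the filter there through its MODP libraries alone, so the direction was fixed by the filter, and with 0 or 1 MOP counts the fitted sizes are no measured fold. With the replicate number as a block, that is, paired, 2724 genes were higher and 2544 lower in MOP; 8 of the 10 genes were again lower, and no call among them changed. Over all genes, leaving out 1 library gave 1281 to 2524 higher and 1036 to 2275 lower genes, the fewest without MOP replicate 1; without MODP replicate 1, 1264 were lower. Higher members of the wider list numbered 5 with the title number as a block, 6 without both WT2 libraries and 2 to 6 with 1 library left out. Its lower members, 14 in the main fit, numbered 10 without MODP replicate 3 or MOP replicate 3. They numbered 18 with the replicate number as a block or without both WT2 libraries. The cause was not tested. The 20 mean levels moved by less than 1 SD under either other scaling. Depth limits Mecom and Nkx2-3 most, at 13 and 1 counts over the 3 MOP libraries.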
